A study of Homo sapiens with 40 samples.

Results

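The genes for the proteins of the cytosolic ribosome were followed across poly(A) RNA-seq libraries of HEK293A, a human embryonic kidney cell line. Members were the protein-coding genes with a symbol made of RPL or RPS and a number, together with RPLP0, RPLP1, RPLP2 and RPSA, while the RPS6K kinase genes and RPS27L were left out. The rule found 90 genes among the 58395 of the count table. Of these, 77 were canonical ribosomal protein genes (46 of the large and 31 of the small subunit), 9 were paralogs, 3 were read-through genes that join a ribosomal protein gene to its neighbour, and 1, RPS19BP1, encodes a protein that binds RPS19. A total of 85 members passed the minimum of 10 counts summed over all libraries and were tested, and the other 5, which include the 3 read-through genes, had no count in any library.

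The study compared wild-type (WT) cells with a PARP1-KO line, labelled as a PARP1 knockdown, in which part of the PARP1 gene was deleted and which is 1 clone. PARP1 makes poly(ADP-ribose) at DNA breaks. Each genotype had 5 conditions of 4 libraries, 40 in all: no treatment, DMSO at 0.1%, topotecan (Tpc), OL9-119 at 5 µM, and Tpc + OL9-119. Tpc poisons topoisomerase 1, and OL9-119 is a usnic acid derivative that inhibits TDP1, an enzyme that clears trapped topoisomerase 1 from DNA. Tpc was given at 100 nM to WT cells and at 50 nM to PARP1-KO cells, whereas OL9-119 was at 5 µM in both. A response to Tpc or Tpc + OL9-119 that differs between the genotypes therefore cannot be told apart from a difference in dose. The Tpc and OL9-119 arms all held DMSO at 0.1%, and the untreated cells did not. The labels call the 4 libraries of a condition biological replicates, whereas the methods of the study speak of technical replicates, so the p-values below measure the spread between these libraries, which may be technical.

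A ribosome is built of a large and a small subunit, and each canonical protein is needed in about 1 copy per ribosome, with the acidic stalk proteins RPLP1 and RPLP2 present as dimers. Ribosomal protein mRNAs are among the most abundant of a dividing cell, and most begin at a C followed by a run of pyrimidines, the 5′ TOP motif, through which the mTOR and LARP1 pathway controls their translation. When ribosome assembly fails, free RPL5 and RPL11, and also RPL23 and RPL26, bind and restrain the ubiquitin ligase MDM2.

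The first transcribed bases of the members on which the results turn are shown to let the TOP run be seen beside the values. Each window holds 30 bases on the strand of the gene, 10 before the annotated start and 20 from it, from RefSeq on GRCh38.p14. Capitals mark the unbroken run of C and T that includes the start base.
RPS25, chr11:119018324-119018353, minus strand: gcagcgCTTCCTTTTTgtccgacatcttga
RPS3, chr11:75399508-75399537, plus strand: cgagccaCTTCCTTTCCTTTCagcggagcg
RPLP2, chr11:809957-809986, plus strand: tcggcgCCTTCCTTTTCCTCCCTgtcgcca
RPL34, chr4:108620566-108620595, plus strand: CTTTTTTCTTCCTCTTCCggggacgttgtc
RPS19, chr19:41860245-41860274, plus strand: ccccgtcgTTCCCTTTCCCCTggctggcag
RPS15, chr19:1438386-1438415, plus strand: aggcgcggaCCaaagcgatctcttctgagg
RPL36AL, chr14:49620607-49620636, minus strand: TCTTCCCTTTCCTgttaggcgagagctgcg
RPS26, chr12:56041908-56041937, plus strand: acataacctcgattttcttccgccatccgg
RPL24, chr3:101686699-101686728, minus strand: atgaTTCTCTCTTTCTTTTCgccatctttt
RPL11, chr1:23691796-23691825, plus strand: gctccgCTTTCTCTTCCTgctctccatcat
RPL22, chr1:6199576-6199605, minus strand: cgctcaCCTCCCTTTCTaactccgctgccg
RPL22L1, chr3:170870176-170870205, minus strand: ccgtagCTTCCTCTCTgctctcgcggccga
RPS25, RPL24 and RPL11 start within long runs. RPS26 has no run at its annotated start, and that of RPS15 has 2 bases. RPL22L1, a paralog, has a run of the same kind as RPL22.

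A promoter entry of 300 bases was at hand for 71 of the 90 members. Among canonical members with an entry, 79.0% (49 of 62) had C as the annotated start base, against 11.8% of 19024 other genes. A run of 6 or more pyrimidines that includes the start base was present in 75.8% of canonical members and in 6.66% of the other genes. Searched on both strands of the 300 bases, TTCCGG, the core of the ETS factor site, was found in 54.8% of canonical members and in 21.6% of other genes, CTTTCC in 48.4% and 25.8%, and CTTTTC in 32.3% and 19.3%. These matches describe letters in a window and not bound sites.

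The libraries held between 3455043 and 20379777 counts. PARP1 itself was at 30.4 to 46.6 CPM (counts after scaling by library total and edgeR's TMM factors) in the PARP1-KO libraries and at 737 to 887 CPM in the WT libraries, 4.33% to 5.24% of the WT mean in the 5 conditions, with an exact two-sided permutation p of 0.0286 in each, the smallest that 4 against 4 allows. Of the marker genes of the line, NEFL, KRT8, KRT18 and VIM were at 189 to 1032 CPM in every library, whereas INA had a median of 0.333 CPM and PAX2 lay between 0.0979 and 12.1 CPM. Of 9 markers of other cell types, 8 had medians below 1 CPM, and COL1A1 was at 9.10 to 43.0 CPM. At a common depth of 3455043 counts, fewer than 17000 genes were expected in 8 WT libraries and in 0 PARP1-KO libraries: untreated replicates 1 and 3, DMSO replicates 2 and 3, Tpc replicate 2, OL9-119 replicate 2 and Tpc + OL9-119 replicates 1 and 2. They stand apart below as the libraries of few genes, and values without them follow the main values. That threshold was set after the data were seen.

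Ribosomal protein genes took 5.53% to 10.0% of all counts in the WT libraries and 6.30% to 7.31% in the PARP1-KO libraries. In untreated WT cells the share was 9.22%, 6.91%, 8.17% and 6.09% in replicates 1 to 4, and in untreated PARP1-KO cells it lay between 6.77% and 7.31%. With DMSO the WT libraries gave 7.18%, 6.07%, 10.0% and 5.89%. With Tpc + OL9-119 the WT libraries gave 5.53%, 6.40%, 5.81% and 5.57%, and the PARP1-KO libraries 6.72% to 7.04%. In each of the 5 WT conditions the library with the highest share was one of few genes, although 2 others of these, DMSO replicate 2 and Tpc + OL9-119 replicate 1, had low shares. The libraries of 1 condition differed by as much as any pair of WT condition means, 7.60% ± 1.38 (SD, n = 4) without treatment against 5.83% ± 0.402 with Tpc + OL9-119. In 8 of the 10 conditions, the library of the highest share was also the library in which other genes shorter than 1000 bases were highest, and the part of library content in these shares was not tested.

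**Figure D1:**
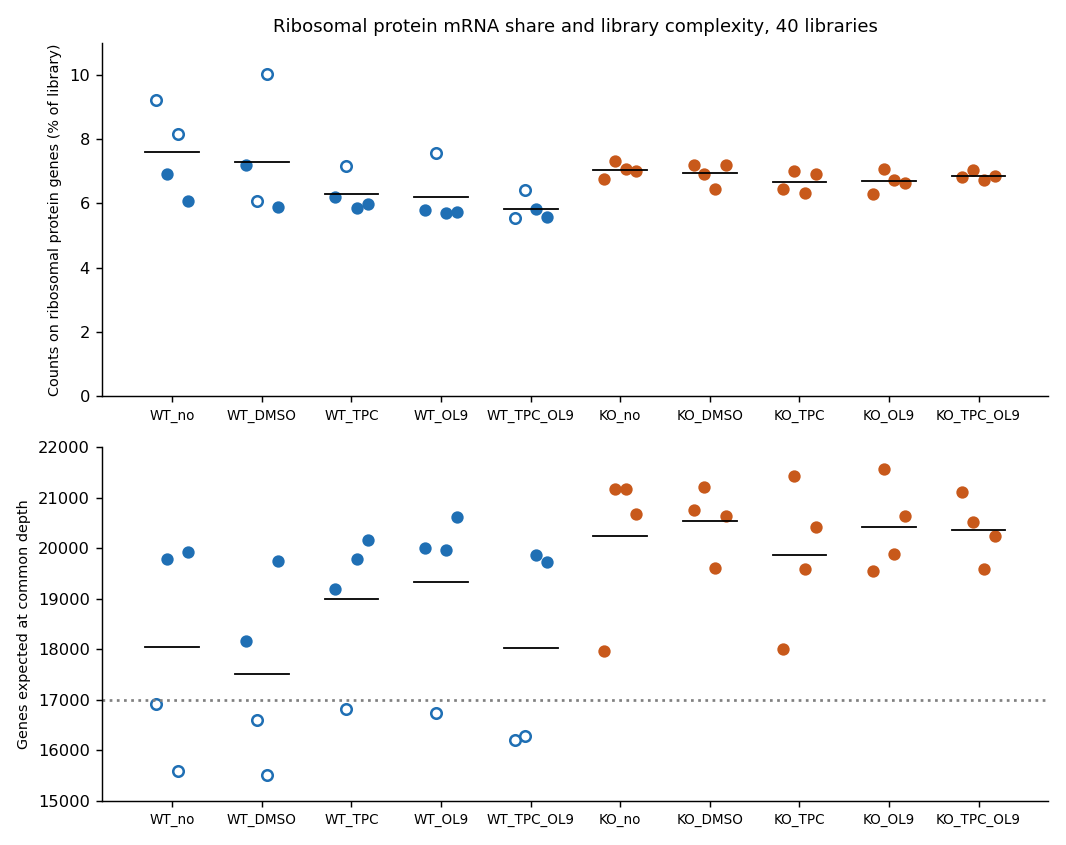
Share of library counts on the 90 ribosomal protein genes (upper panel, percent) and number of genes expected at a common depth of 3455043 counts (lower panel) in each of the 40 libraries, by genotype and condition, with WT in blue, PARP1-KO (KO) in orange, TPC for Tpc and OL9 for OL9-119. Lines are condition means and open circles mark the libraries below 17000 genes; the WT shares span 5.53% to 10.0% and the PARP1-KO shares 6.30% to 7.31%.

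To set levels side by side between genes, CPM was divided by length. Per kb of coding sequence the canonical members had a median of 1618 CPM, and per kb of the whole annotated transcript, from which the reads come, a median of 844 CPM. The order at the top depended on the length used. RPL41, which has 75 coding bases in a transcript of 676, was the highest per coding kb (9448 CPM) and the 31st per transcript kb (1048 CPM), whereas RPS2, RPS18 and RPL7A were the highest per transcript kb at 3257, 2916 and 2744 CPM. RPS24 was among the 4 highest by both lengths. At the low end, RPL17, RPS10 and RPL36A were at 5.03, 8.07 and 60.9 CPM per coding kb and at 4.52, 6.79 and 25.5 CPM per transcript kb. These share exon bases on the same strand with a read-through gene, and the gene counting of STAR leaves out reads that overlap more than 1 gene, so their counts do not measure their mRNA fully. Of the 76 canonical members with a coding sequence of at least 100 bases, 54 had at least 1 window of 100 coding bases with an exact copy elsewhere in the genome, and RPL21, RPL36A, RPL39, RPS26, RPS27 and RPS28 had one for every window. Reads from such windows may be lost or shared with pseudogenes, and fold changes of these genes are uncertain to that degree.

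In WT cells, Tpc + OL9-119 went with lower counts of ribosomal protein mRNAs. Of the 85 members, 31 were lower and 0 higher than in untreated WT cells at an adjusted p below 0.01 (edgeR quasi-likelihood test, Benjamini-Hochberg over 28922 genes). Over all genes, 2% were called lower in that comparison. The median log2 fold change was −0.48 over the members and 0.00 over all genes, and 6 of 85 estimates lay above 0. Other genes of at most 1000 bases moved the same way, without overlap of the libraries: their median log2 deviation from the average library was 0.31 ± 0.20 (SD, n = 4) without treatment and −0.09 ± 0.07 with the combination. The part of this shift in the result was not tested. The 30 canonical members called were 17 of the large and 13 of the small subunit. Counts are relative to the other mRNAs of a library, and in bulk RNA a smaller number of expressing cells and less mRNA per cell cannot be told apart.

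RPL36AL, a paralog of RPL36A, fell the most of the members called. It was at 217, 137, 155 and 110 CPM in untreated WT cells and at 69.9, 78.9, 80.2 and 75.2 CPM with Tpc + OL9-119, a log2 change of −1.02 ± 0.18 (SE) with an edgeR adjusted p of 4.88e-05. Every treated library lay below every untreated one, and the treated libraries differed among themselves by far less. RPS26, a small subunit protein near the mRNA exit channel, went from 471, 263, 423 and 238 CPM to 214, 202, 162 and 152 CPM, a change of −0.93 ± 0.17 with an edgeR adjusted p of 7.98e-05. RPS15, of the small subunit head, went from 556, 507, 449 and 463 CPM to 171, 201, 344 and 345 CPM (−0.90 ± 0.18, edgeR adjusted p = 0.000445). The 2 lowest treated values of RPS15 belong to the libraries of few genes. RPL24, of the large subunit, was at 1027, 676, 775 and 642 CPM without treatment and at 426, 469, 487 and 456 CPM with the combination (−0.76 ± 0.14, edgeR adjusted p = 7.64e-05). RPL38, of the large subunit, went from 904, 662, 956 and 580 CPM to 425, 492, 495 and 459 CPM (−0.73 ± 0.14, edgeR adjusted p = 0.000345). For RPL36AL, RPS26, RPL24 and RPL38 the 2 untreated libraries of few genes were the 2 highest of all 8.

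The number of members called in this comparison changed with the libraries, the filter and the model. In the fit without the libraries of few genes, which leaves 2 against 2, 6 members were called lower, where 1.43% of all genes were called in either direction. All 6 were among the 31: RPL11, RPL24, RPL29, RPL36AL, RPL7A and RPS26, with a median over the members of −0.24 and 7 estimates above 0. In that fit RPL36AL changed by −0.67 (edgeR adjusted p = 0.00162), RPS26 by −0.68 (0.000403) and RPL24 by −0.49 (0.00431), whereas RPS15 changed by −0.50 (0.132). When gene length and GC content entered as offsets, 4 members were called, RPL36AL, RPL7, RPS15 and RPS26, with a median of −0.26. The share of all genes called with these offsets is not given here. With the number of genes detected as a covariate, 51 members were called lower, including all 31, where 5.5% of all genes were called in either direction, with a median of −0.47. With no filter on low counts 64 were called lower, where 4.13% of all genes were called. With 1 library left out at a time, the count of calls ran from 10 without untreated replicate 1 to 58 without untreated replicate 4, the untreated libraries with the highest and the lowest share. The shares of all genes called in those fits are not given here. RPS26 and RPL36AL were called in the main fit, without the libraries of few genes and with the length and GC offsets. Within the library name prefixes L01, L02 and L03, the median of the members was −0.90, −0.19 and −0.37, with 1 or 2 libraries a side.

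OL9-119 alone gave 7 lower and 0 higher members in WT cells, where 0.833% of all genes were called lower, and the members had a median of −0.40. They were RPS26 (−0.90), RPL36AL (−0.77), RPL24 (−0.61), RPL7A (−0.58), RPL6 (−0.55), RPS3A (−0.53) and RPL23 (−0.47), and for each of them the CPM of the treated libraries overlapped that of the untreated ones. RPS26 was at 177, 248, 164 and 160 CPM with OL9-119, and the 248 CPM belong to replicate 2, the library of few genes. In the fit without the libraries of few genes 4 members were called and the median was −0.24. With the length and GC offsets RPS26 alone was called, and with DESeq2 11 members were called. Leaving out untreated replicate 1 gave 1 call and leaving out untreated replicate 4 gave 34. The shares of all genes called in these other fits are not given here. Their counts therefore do not set the members apart from other genes.

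Tpc alone gave 0 called members in WT cells by edgeR and by DESeq2, with 0.857% of all genes called in either direction. With no filter on low counts edgeR called 13 members lower, where 1.26% of all genes were called. The median of the 85 members was −0.33, with 5 estimates above 0. The median was −0.15 without the libraries of few genes. RPS26 was at 224, 315, 196 and 199 CPM with Tpc (−0.58 ± 0.17, edgeR adjusted p = 0.0467), and replicate 2, the library of few genes, was the highest. DMSO alone gave 0 called members in WT cells by both tools, with 0% of all genes called by edgeR and a median of −0.07 over the members. With DMSO instead of untreated cells as the comparator, OL9-119 gave 1 called member and Tpc + OL9-119 gave 16. The shares of all genes called with that comparator are not given here, so these counts do not set the members apart. The comparisons of 1 genotype share the same 4 untreated libraries. In the libraries of prefix L02, with 1 library a side, the median of the members was 0.07 with Tpc and 0.09 with OL9-119, whereas it was below 0 in L01 (−0.69 and −0.84) and L03 (−0.31 and −0.38).

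**Figure D2:**
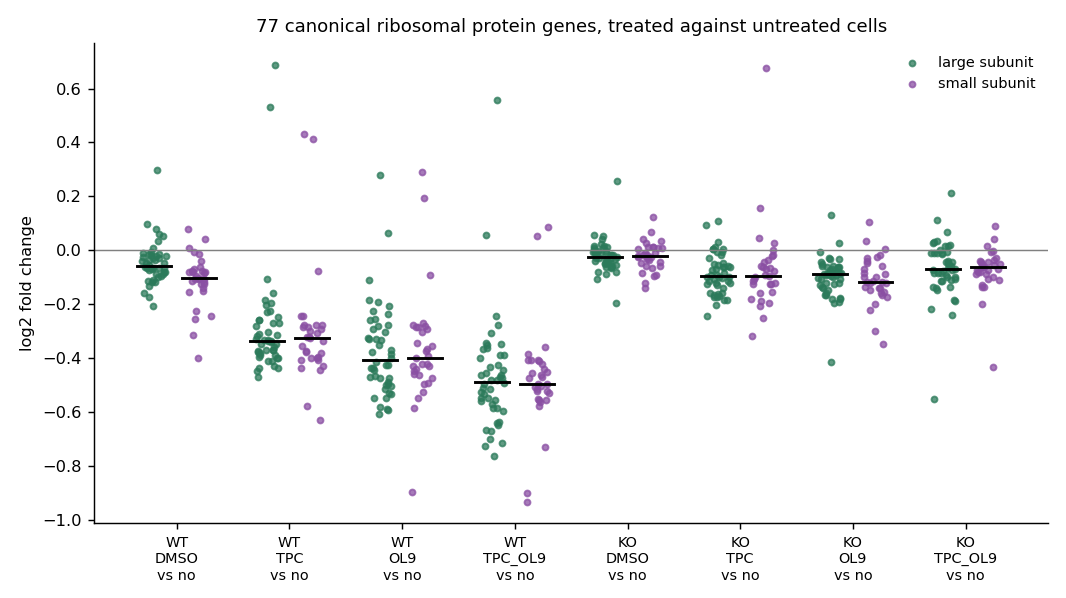
Log2 fold change of the 77 canonical ribosomal protein genes against untreated cells of the same genotype, for DMSO, Tpc (TPC), OL9-119 (OL9) and Tpc + OL9-119 (TPC_OL9), with large-subunit genes in green and small-subunit genes in purple. Each point is 1 gene and each line the median of its subunit; the WT drug medians lie between −0.32 and −0.50, the PARP1-KO (KO) medians between −0.02 and −0.12.

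Among the canonical members, RPL17, RPL36A and RPS10, named above for shared exon bases, had estimates above 0 under all 3 WT drug treatments. RPL36A was at 16.1, 15.2, 19.1 and 15.2 CPM without treatment and at 29.3, 29.9, 16.4 and 20.3 CPM with Tpc + OL9-119, a change of 0.56 ± 0.22 with an edgeR adjusted p of 0.115. Its estimate was thus opposite in sign to that of RPL36AL, and it did not pass the test.

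In PARP1-KO cells 0 members were called after any treatment, by edgeR or by DESeq2. By edgeR, 0% of all genes were called in either direction after DMSO, 0.0138% after Tpc, 0.00346% after OL9-119 and 0% after both drugs. The members' medians were, in the same order, −0.02, −0.09, −0.10 and −0.07. RPL24 was at 706, 905, 818 and 763 CPM in untreated PARP1-KO cells and at 663, 682, 779 and 683 CPM with Tpc + OL9-119 (−0.19 ± 0.13). RPL36AL was at 138.8, 122.7, 119.0 and 107.8 CPM without treatment and at 102.2, 89.2, 93.2 and 93.6 CPM with the combination, a change of −0.37 ± 0.17 with an edgeR adjusted p of 1. Its groups did not overlap, as in WT cells, although the change did not pass the test.

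The difference of the responses, PARP1-KO minus WT, tests whether the genotypes responded unequally. None of the 85 members passed for Tpc, OL9-119 or Tpc + OL9-119, by edgeR or by DESeq2, where 0.1%, 0.0657% and 0.27% of all genes were called in either direction by edgeR. The medians were 0.24, 0.28 and 0.42, with 78, 77 and 81 of 85 estimates above 0. RPS26 had a difference of 0.80 ± 0.23 for the combination (edgeR adjusted p = 0.121), and RPS15 of 0.79 ± 0.25 (0.18). Without the libraries of few genes the medians were 0.05, 0.14 and 0.18. With the number of genes detected as a covariate they were 0.15, 0.20 and 0.41. Without the filter on low counts, edgeR called 6 members higher for the combination, where 0.405% of all genes were called, and 0 for either drug alone.

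Adding OL9-119 to Tpc gave 0 called members against Tpc alone in either genotype, by edgeR and by DESeq2. Over all genes, edgeR called 0.18% in WT cells and 0% in PARP1-KO cells in either direction. The medians were −0.15 in WT cells and 0.02 in PARP1-KO cells. Within L01, L02 and L03 the WT median was −0.19, −0.23 and −0.09. With the length and GC offsets it was 0.00. RPS15 in WT cells was at 430, 371, 376 and 405 CPM with Tpc and at 171, 201, 344 and 345 CPM with Tpc + OL9-119 (−0.58 ± 0.18, edgeR adjusted p = 0.202), and these groups did not overlap.

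The medians of the large and the small subunit lay close to each other. In WT cells those of the large-subunit and small-subunit genes were −0.34 and −0.32 with Tpc, −0.41 and −0.40 with OL9-119 and −0.49 and −0.50 with Tpc + OL9-119. For PARP1-KO cells given the combination the medians were −0.07 and −0.06. The ratio of large-subunit to small-subunit counts stayed between 1.47 and 1.58 in all 40 libraries. The widest gap between subunit medians was that of PARP1-KO against WT cells with DMSO, −0.08 for the large and 0.09 for the small subunit. The stalk genes did not pass in WT cells with Tpc + OL9-119. The estimates were −0.35 ± 0.12 for RPLP0, −0.48 ± 0.16 for RPLP1 and −0.46 ± 0.16 for RPLP2, with edgeR adjusted p of 0.0698, 0.0532 and 0.0553.

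The members that bind MDM2 were described on their own. RPL11 was at 1939, 1294, 1841 and 1087 CPM in untreated WT cells and at 985, 1168, 902 and 821 CPM with Tpc + OL9-119, a change of −0.67 ± 0.15 that passed the test (edgeR adjusted p = 0.00245), with 1 treated library above the lowest untreated one. RPL23 went from 1481, 1026, 1360 and 1023 CPM to 741, 893, 822 and 802 CPM (−0.59 ± 0.11, edgeR adjusted p = 0.000167), with separate groups. RPL5 went from 2134, 1393, 2003 and 1431 CPM to 1481, 1401, 1268 and 1170 CPM (−0.39 ± 0.12, edgeR adjusted p = 0.0282). RPL26 was at 57.4 to 77.8 CPM without treatment and at 32.6 to 59.0 CPM with the combination (−0.64 ± 0.29, edgeR adjusted p = 0.184). RPL11 and RPL23 therefore passed and RPL5 and RPL26 did not. RPL26 shares exon bases with another gene on the same strand, so its counts may not measure its mRNA fully. RPL11 passed (−0.47, 0.00376) and RPL23 did not (−0.34, 0.0575) without the libraries of few genes. In PARP1-KO cells the 4 changes with the combination were −0.14, −0.14, −0.08 and −0.55 for RPL11, RPL23, RPL5 and RPL26, and none passed.

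Of the genes of the ubiquitin ligases of ribosomal proteins and the MDM2 axis, RPS27L, a paralog of RPS27 outside the members, fell by 0.70 on the log2 scale in WT cells with Tpc + OL9-119 (edgeR adjusted p = 0.000157). It also fell with OL9-119 alone, by 0.78 (edgeR adjusted p = 5.58e-05).

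The untreated PARP1-KO and WT cells differed in 13 members, 12 of them lower and 1 higher in PARP1-KO cells, where 5.74% of all genes were called lower and 5.97% higher. The median of the members was −0.08, against 0.17 for all genes. RPS25, a small subunit protein used by several viral internal ribosome entry sites, was at 566, 427, 648 and 384 CPM in WT cells and at 255, 276, 265 and 279 CPM in PARP1-KO cells, a difference of −0.91 ± 0.14 with an edgeR adjusted p of 4.98e-07. The PARP1-KO libraries were close together and all below the WT ones. RPL34, of the large subunit, was at 656, 389, 561 and 417 CPM in WT and at 269, 295, 281 and 284 CPM in PARP1-KO cells (−0.84 ± 0.14, edgeR adjusted p = 4.38e-06). RPS3A and RPL7A, of the small and the large subunit, were lower by −0.77 each. RPL39L, the paralog of RPL39 known from germ cells, was at 23.8, 27.3, 20 and 20.5 CPM in WT and at 15.8, 14.4, 10.6 and 10.9 CPM in PARP1-KO cells (−0.83 ± 0.23, edgeR adjusted p = 0.00561). RPS27A, made as a fusion with ubiquitin, was lower by −0.71 ± 0.16 (edgeR adjusted p = 0.000443). RPS19, the gene most often mutated in Diamond-Blackfan anaemia, was the 1 member called higher, at 1284, 1666, 1672 and 1636 CPM in PARP1-KO and at 1325, 1178, 1100 and 910 CPM in WT cells (0.47 ± 0.13, edgeR adjusted p = 0.00756). Of its 4 PARP1-KO libraries 3 lay above all WT libraries and 1 did not.

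The split between higher and lower members changed with the WT libraries used. Without the libraries of few genes, 18 members were higher and 6 lower, and the median was 0.14 with all genes at 0.11, where 13.6% of all genes were called in either direction. With the number of genes detected as a covariate, 5 were higher and 5 lower, where 11.1% of all genes were called, with a median of 0.08. With the length and GC offsets, 7 were higher and 14 lower, where 12% of all genes were called in either direction. RPS25 (−0.60, edgeR adjusted p = 1.8e-06), RPL34 (−0.52) and RPL39L (−0.91) were lower without the libraries of few genes as well, and RPS19 was higher (0.58). Of the 13 calls 7 were made again in that fit. Within L01 the median of the members was −0.36 and within L02 0.05, with 1 WT library each. Markers also differed between the untreated genotypes, with KRT18 at −0.76, KRT8 at −0.38, VIM at 0.53 and COL1A1 at −0.93, and their part in the result was not tested. With DMSO in both genotypes, 9 members were lower and 1 higher, where 5.75% of all genes were called lower and 6.67% higher. RPL39L (−1.22), RPS25 (−0.80) and RPL34 (−0.76) were again among the lowest. With DMSO, 8 were lower and 15 higher without the libraries of few genes, where 14.8% of all genes were called, and 5 lower and 6 higher with the covariate (median 0.17), where 10.7% were called. Within L01, L02 and L03 the DMSO medians were −0.00094, 0.10 and −0.09. Without DMSO replicate 3 of WT alone, 18 members were called in DMSO and the median was 0.16, against −0.06 with it. For untreated cells, leaving out WT replicate 1 gave 7 calls. The shares of all genes called with 1 library left out are not given here.

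The members called differed in where they lie in the genome, a grouping made after the values were seen for chromosomes 4 and 19. Chromosome 11 was chosen because the clone was said to have lower counts there, with earlier results of these data known. All of these groupings are therefore descriptions. On chromosome 11, 4 of 5 members were lower in untreated PARP1-KO cells, RPS25, RPL27A (−0.58), RPS3 (−0.51) and RPS13 (−0.41), and RPLP2 was at 0.03. The median of the 5 was −0.51, and the median of 591 other genes of chromosome 11 was also −0.51. RPS3, whose product also takes part in DNA repair, was at 2416, 1923, 2016 and 1764 CPM in WT and at 1186, 1600, 1469 and 1439 CPM in PARP1-KO cells. RPS3 and RPS25 thus lay in separate groups by genotype, whereas RPLP2 was at 955, 539, 705 and 492 CPM in WT and at 719, 676, 645 and 707 CPM in PARP1-KO cells. On chromosome 4 the 3 members, RPL34, RPS3A and RPL9, had a median of −0.77, with 375 other genes at −0.41. On chromosome 19, 11 of 12 members lay above 0, with a median of 0.22 and 681 other genes at 0.23. RPS9 was the exception at −0.32 ± 0.13 (edgeR adjusted p = 0.0944).

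The difference of each member was set beside that of the 20 nearest other genes of at least 10 CPM on its chromosome. RPS25 at −0.91 had neighbours with a median of −0.71, RPL34 at −0.84 of −0.67, RPS3 at −0.51 of −0.46 and RPL7A at −0.77 of −0.44. RPL27A at −0.58 had neighbours at 0.05, RPLP2 at 0.03 had neighbours at −0.44 and RPL39L at −0.83 had neighbours at 0.08. Over the 77 canonical members the own and the neighbour values had a Pearson r of 0.49 without treatment and 0.74 with Tpc + OL9-119, and 0.33 and 0.53 over the 57 members outside chromosomes 4, 11 and 19. These correlations are over genes, which share libraries and some of their neighbours, and are given as descriptions. The number of copies of these regions in the clone was not measured here.

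**Figure D3:**
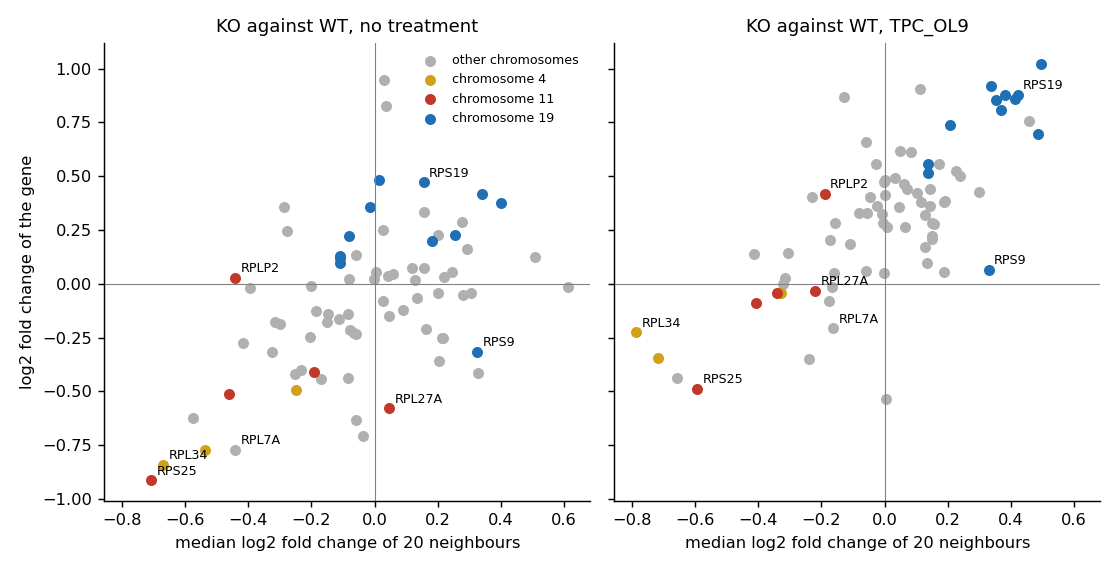
PARP1-KO against WT log2 fold change of each of the 77 canonical ribosomal protein genes (vertical axis) and the median log2 fold change of its 20 nearest expressed genes (horizontal axis), in untreated cells (left) and with Tpc + OL9-119 (right, TPC_OL9). Points of chromosome 4 are yellow, of chromosome 11 red and of chromosome 19 blue; RPS25 and RPL34 lie low on both axes on the left, and the chromosome 19 members lie high on both axes on the right, except for RPS9.

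With Tpc + OL9-119 in both genotypes, 20 members were higher and 2 lower in PARP1-KO than in WT cells, where 3.56% of all genes were called higher and 3.71% lower. The median of the members was 0.33, with all genes at 0.14, and 65 of 85 lay above 0. Among the largest were RPS15 (0.92), RPS19 (0.88 ± 0.13, edgeR adjusted p = 1.95e-06) and RPL36 (0.86), all of chromosome 19. RPS19 was at 1483, 1618, 1400 and 1517 CPM in PARP1-KO and at 708, 957, 842 and 766 CPM in WT cells. RPS15 was at 516, 563, 474 and 448 CPM in PARP1-KO and at 171, 201, 344 and 345 CPM in WT cells (edgeR adjusted p = 0.000168). In both genes every PARP1-KO library lay above every WT library. Without the libraries of few genes RPS15 did not pass (0.53, edgeR adjusted p = 0.0126), whereas RPS19 was at 0.90. On chromosome 19, 11 of 12 members were called higher, with a median of 0.83 and other genes of the chromosome at 0.39, and RPS9 was at 0.07. Of the 57 canonical members outside chromosomes 4, 11 and 19, 8 were called higher and 0 lower, with a median of 0.33. The 2 members called lower were RPL39L (−1.07 ± 0.23, edgeR adjusted p = 0.000673) and RPS25 (−0.49 ± 0.14, edgeR adjusted p = 0.00878).

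In the fit without the libraries of few genes, 39 members were higher and 2 lower with Tpc + OL9-119, with a median of 0.33, where 9.42% of all genes were called, and 19 of the 22 calls were made again. With the length and GC offsets 12 were higher and 5 lower, with a median of 0.13, and 10 of the 12 members called higher were of chromosome 19. The share of all genes called in that fit is not given here. Within L01, L02 and L03 the median was 0.38, 0.20 and 0.33. PARP1-KO libraries hold more genes at a common depth than WT libraries in this arm (19594 to 21120 against 16194 to 19871), and its part in the result was not tested.

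With Tpc in both genotypes 8 members were higher and 4 lower, where 4.17% of all genes were called higher and 4.34% lower, with a median of 0.14. With OL9-119 in both genotypes 8 were higher and 0 lower, where 4.94% and 4.83% of all genes were called, with a median of 0.20. RPS19, RPL36, RPL37, RPL8 and RPS18 were called higher in both of these comparisons and with Tpc + OL9-119. RPS15A (0.74) and RPS6 (0.51), whose product is the substrate of the S6 kinases, were called with Tpc only, although the difference between the treatments was not tested. Without the libraries of few genes 30 were higher and 6 lower with Tpc, and 43 higher and 3 lower with OL9-119, where 15.6% and 16.7% of all genes were called in either direction. With the length and GC offsets the counts were 12 and 5 with Tpc, where 8.35% of all genes were called in either direction, and 13 and 4 with OL9-119. Each library left out in turn gave 5 to 8 calls with Tpc, the fewest without WT replicate 3, and 5 calls without WT replicate 1 to 18 without WT replicate 2 with OL9-119. The shares of all genes called are not given here for these fits, nor for the offsets with OL9-119. Within L01, L02 and L03 the median of the members was 0.11, −0.07 and 0.26 with Tpc, and 0.20, −0.03 and 0.34 with OL9-119, so in L02 it lay below 0. Over the 5 conditions, 0 members were called higher in some and lower in others. RPS25 and RPL39L were called lower in 4 of the 5 conditions, RPL34 in 3, and RPS19 was called higher in 4.

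**Figure D4:**
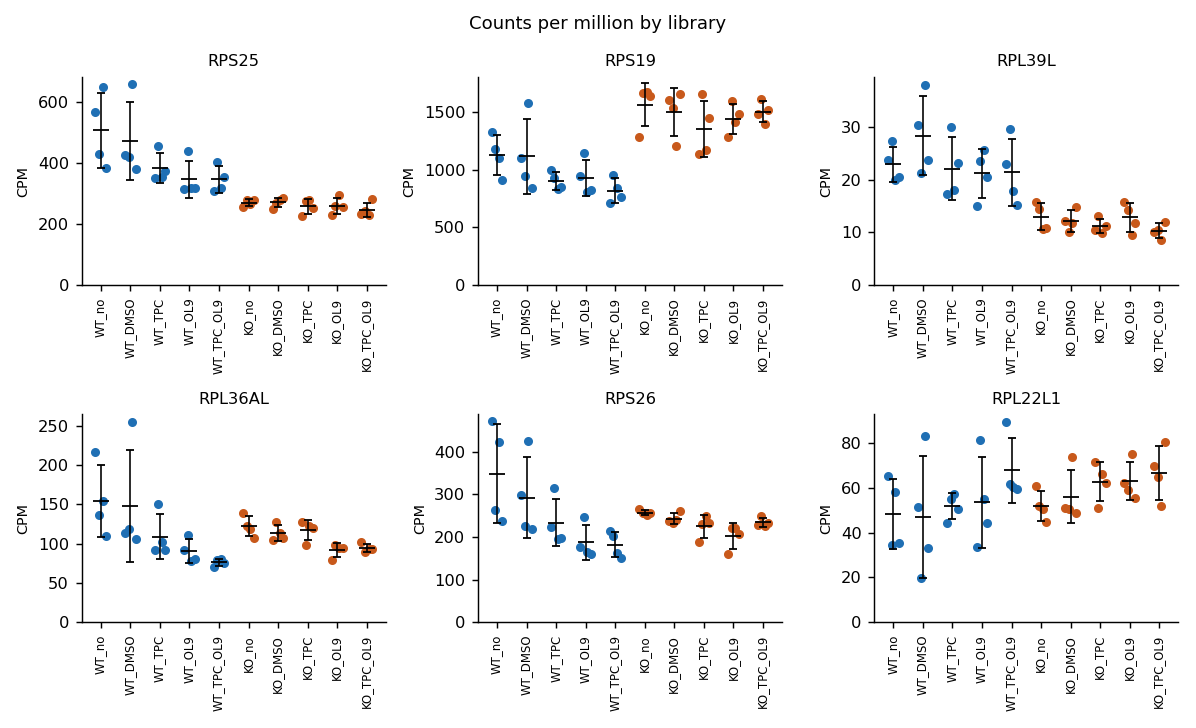
TMM-scaled CPM of RPS25, RPS19, RPL39L, RPL36AL, RPS26 and RPL22L1 in each library of the 10 conditions, WT in blue and PARP1-KO (KO) in orange, with the mean and SD of 4 libraries. RPS25 and RPL39L lie lower and RPS19 higher in PARP1-KO cells, and RPL36AL and RPS26 fall from untreated to Tpc + OL9-119 (TPC_OL9) in WT cells.

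Per kb of coding sequence, 5 paralogs were below their canonical partners, by amounts that differed widely. RPL39L was at 114.5 CPM per kb and RPL39 at 3597, RPL22L1 at 155 and RPL22 at 1112, RPL26L1 at 94.5 and RPL26 at 158, RPL7L1 at 662 and RPL7 at 1606, RPL3L at 1.34 and RPL3 at 1458. RPL36AL, at 351 CPM per kb, was instead above RPL36A at 60.9, whose reads are counted only in part. The reads of RPL26, which shares exon bases with another gene on its strand, may also be counted only in part. RPL10L, a testis copy of RPL10, had 11 counts over all libraries. RPL22L1, whose mRNA the RPL22 protein is known to repress, was at 65.2, 34.5, 58.0 and 35.5 CPM in untreated WT cells and at 89.3, 61.8, 60.4 and 59.6 CPM with Tpc + OL9-119. That change of 0.49 ± 0.23 did not pass (edgeR adjusted p = 0.198), and RPL22 changed by −0.37 ± 0.14 in the same comparison (0.102). RPL7L1, a nucleolar paralog, was higher in PARP1-KO cells with OL9-119 (0.37 ± 0.09, edgeR adjusted p = 0.00134) and with Tpc + OL9-119 (0.35 ± 0.09, edgeR adjusted p = 0.00383), with separate groups in both.

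Across the 10 condition means, each tested member was compared with the average of the canonical ones. RPL15, RPL24 and RPL38 were the most like it (Pearson r of 0.99, 0.98 and 0.98 over 10 conditions), and RPL36A and the paralogs RPL22L1 and RPL39L the least (−0.55, −0.38 and −0.30). RPS25, a canonical and abundant member, was at −0.02. These values share the libraries and are descriptions.

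Members with and without the TOP run had close medians in WT cells with Tpc + OL9-119. The 47 canonical members with a run of 6 or more pyrimidines had a median of −0.48, and the 15 without had −0.46. With OL9-119 alone the medians were −0.42 and −0.37. RPS26, without a run at its annotated start, and RPL24, with one of 16 bases, were both among the members called.

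Other genes of translation were taken from lists. Of 24 TOP mRNAs that encode no ribosomal protein of the rule, 5 fell and 1 rose in WT cells with Tpc + OL9-119. Over all genes, 2% were called lower in that comparison, and the share called higher is not given here. FAU (−0.71 ± 0.17), which encodes a ribosomal protein fused to a ubiquitin-like protein, and EEF1D (−0.57 ± 0.13), an elongation factor subunit, were lower, and GAS5 (0.53 ± 0.13), a TOP gene that hosts small nucleolar RNAs, was higher, with edgeR adjusted p of 0.00292, 0.00279 and 0.00324. The median of the 24 was −0.19. In untreated PARP1-KO against WT cells 8 of the 24 were higher and 1 lower, among them GAS5 (1.21 ± 0.13), EIF4A2 (0.73 ± 0.09) and EEF2 (0.72 ± 0.09). Over all genes, 5.97% were called higher and 5.74% lower there. These shares also apply to the counts in untreated cells for the lists below. Of 12 regulators of ribosomal protein gene transcription, 6 were higher in untreated PARP1-KO cells, including GABPA (1.01 ± 0.20) and TAF1 (0.91 ± 0.18), and 2 rose in WT cells with Tpc + OL9-119, GABPA (0.90 ± 0.20) and ZBTB33 (0.71 ± 0.17). Of 13 genes that control TOP translation, RPS6KB2, EIF4EBP2 and RHEB were lower and LARP4 and RPS6KB1 higher in untreated PARP1-KO cells, with RPS6KB2 at −1.34 ± 0.16. None of the 13 passed in WT cells with any treatment, by edgeR. Of 12 chaperones and importers of ribosomal proteins, the importers IPO9 (0.72 ± 0.11) and TNPO1 (0.75 ± 0.16) were higher in untreated PARP1-KO cells.

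The mitochondrial ribosomal proteins, encoded by nuclear genes for another ribosome, served for comparison. Of 78 tested, 8 were lower and 1 higher in WT cells with Tpc + OL9-119, where 2% of all genes were called lower. The median of the 78 was −0.24. In untreated PARP1-KO against WT cells 18 were lower and 1 higher, where 5.74% of all genes were called lower and 5.97% higher. The median was −0.23. With Tpc + OL9-119 in both genotypes 3 were higher and 4 lower, where 3.56% of all genes were called higher and 3.71% lower. The median was −0.07, where the cytosolic members had 0.33.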

How the data were processed

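Poly(A) RNA of 40 libraries was sequenced, and the authors deposited raw gene counts from STAR 2.7.8 on hg38, with FastQC 0.11.9 and Picard 2.26.6 named in the submitters' notes; which strand column of the STAR output was kept is not given in the sources used here. Gene IDs were matched to GENCODE 44 (57754 of 58395).

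The counts were tested with edgeR 4.0.16 in R 4.3.3 (TMM, quasi-likelihood F-test, 28922 genes with at least 10 summed counts, 10 groups in 1 fit over all 40 libraries), and a gene was called at a Benjamini-Hochberg adjusted p below 0.01. Each SE is the size of the log2 fold change divided by the square root of F. DESeq2 1.42.0, other scalings and filters, offsets for gene length and GC, name prefixes, the DMSO comparator, left-out libraries and a fit without the libraries of few genes were alternatives, and the last, with the number of genes detected as a covariate, was added after the data were seen. Total counts ran from 3455043 to 20379777 and limit the precision of low genes. No pair of libraries agreed within counting noise.

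Members named were fixed by role (MDM2-binding proteins, paralog pairs, stalk proteins, other well-known members, chromosome 11) and by the 5 largest called changes without overlap in each direction and comparison. The members and the gene lists were chosen with earlier results of these data known. Same-numbered libraries did not all deviate together (mean r of 0.060 within WT, 0.11 within PARP1-KO and 0.0016 between genotypes, lowest −0.35), so the numbers were not taken to pair them. On simulated counts of untreated PARP1-KO against WT cells (27991 genes), edgeR recovered 75% of 100 genes changed by 1 on the log2 scale and 6% of 100 changed by 0.5. Some members and other genes named by these rules are not reported here.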

Additional observations from a re-analysis of the deposited data

Results flagged for a closer look

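In 11 of 120 groups of 4 libraries tested, 1 library stood apart from the other 3 by Dixon's ratio (above the critical value for 4 samples), where chance flags about 1 in 20 groups. In WT cells, replicate 2, a library of few genes, was the one apart for the share of counts on ribosomal protein genes with OL9-119 (7.57%), for RPS25 with OL9-119 (437 CPM), for RPLP2 with Tpc (658 CPM) and with Tpc + OL9-119 (577 CPM), and for RPL11 with Tpc (1497 CPM), each time as the highest of its 4. RPL36AL was highest in DMSO replicate 3 of WT cells (255 CPM), also a library of few genes. RPL22L1 was highest in Tpc + OL9-119 replicate 1 of WT cells (89.3 CPM), another of them. In PARP1-KO cells with DMSO, replicate 3 stood apart with the lowest RPS15 (340 CPM), the highest RPL22L1 (73.7 CPM) and a ratio of large-subunit to small-subunit counts of 1.55. RPS19 was lowest in replicate 1 of the untreated PARP1-KO cells (1284 CPM).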

How the results depend on the processing

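Of the values for single named members, 1459 kept their direction and call, 433 kept their direction and lost the call, and 0 reversed. DESeq2 called 11 members for OL9-119 in WT cells (main 7). No filter on low counts gave 21, 17 and 19 calls between the genotypes without treatment, with DMSO and with OL9-119, 13, 39 and 64 for Tpc, OL9-119 and both drugs in WT cells, 1 for both drugs against Tpc in WT cells, and 6 for the difference of responses to both drugs. Fits of only the libraries compared gave 7, 6, 23 and 38 calls between genotypes (untreated, DMSO, OL9-119, both drugs), and 0 and 6 in WT cells (OL9-119, both drugs). Length and GC offsets gave 21, 25 and 17 calls between genotypes (untreated, DMSO, OL9-119) and 1 and 4 in WT cells, with medians of 0.13 (genotypes, both drugs), −0.26 (WT, both drugs), 0.0038 (WT, both drugs against Tpc) and 0.21 (difference of responses, both drugs). DMSO as comparator gave 1 and 16 calls in WT cells. Without the libraries of few genes, calls between genotypes were 24, 23, 36, 46 and 41 in the order untreated, DMSO, Tpc, OL9-119 and both drugs, and 4 and 6 in WT cells, with medians of 0.14 (genotypes, untreated), −0.24 (WT, both drugs) and 0.050 and 0.18 (difference of responses to Tpc and to both drugs). Genes detected as a covariate gave 26 and 43 calls between genotypes (OL9-119, both drugs; median 0.48 for the latter), 5 higher and 5 lower untreated and 6 higher and 5 lower with DMSO, with medians that turned to 0.08 and 0.17, and 4 and 51 in WT cells. The large minus small subunit median became −0.044 and −0.033 with the name prefix (genotypes, untreated and Tpc), −0.048, −0.065 and −0.079 with the offsets (untreated, Tpc, OL9-119), −0.064, 0.12 and 0.066 without the libraries of few genes (DMSO, OL9-119, difference of responses to both drugs), 0.060, 0.012, 0.12 and 0.053 with the covariate (untreated, DMSO, Tpc, OL9-119), −0.021 and 0.00035 with it for the differences of responses to Tpc and OL9-119, and −0.061 and −0.011 with DMSO as comparator (WT both drugs, PARP1-KO OL9-119). With nuclear genes as the denominator the share was 7.35% in untreated PARP1-KO cells and 7.18% with both drugs. The cause of these shifts was not tested. Where no share of all genes stands beside a count of calls, the count does not set the members apart from other genes.

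Leaving out 1 library at a time gave 7 to 17, 9 to 18, 5 to 8, 5 to 18 and 16 to 21 calls between genotypes in the order above, and 0 to 5, 1 to 34 and 10 to 58 for the 3 drug treatments in WT cells. The large minus small subunit median then ran from −0.075 to 0.019, from −0.11 to 0.16 and from −0.064 to 0.16 between genotypes (untreated, Tpc, OL9-119), and from 0.00066 to 0.063, from 0.0018 to 0.075 and from −0.0093 to 0.066 for the differences of responses to Tpc, OL9-119 and both drugs. The replicate numbers did not pair the libraries, and with the number as a replicate block the calls were 13, 11, 12, 11 and 24 between genotypes and 0, 9 and 38 for the drug treatments in WT cells. No call on a named member was lost with the block.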
